A study of Mus musculus with 4 samples.

Results

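The Khdc1 family of the mouse consists of Khdc1a, Khdc1b and Khdc1c, a cluster of genes on chromosome 1 that encode small proteins with a KH domain. The 3 genes were chosen for their high ratio of ribosome-protected fragments (RPFs) to mRNA in blastocysts, and they were taken as the rows of each table that carry their symbols. They are 3 of 20714 gene symbols listed in both assays, and each symbol had 1 row in each of the 4 libraries.

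The KH (hnRNP K homology) domain is a fold that binds single-stranded RNA and is found in many proteins that splice, transport, stabilise or translate mRNAs. The Khdc1 proteins carry an atypical form of this domain, as do Khdc3, Ooep and Dppa5a, and genes of this group are known for their expression in oocytes, early embryos and pluripotent cells. Ribo-seq sequences the stretch of mRNA that a ribosome shields from RNase, so the RPF level of a gene reflects how many ribosomes sit on its coding sequence, whereas RNA-seq gives the level of the mRNA itself.

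The study followed transcriptome, translatome and proteome from oocyte to embryo, and the libraries analysed here are those of blastocysts, with 2 RNA-seq and 2 Ribo-seq replicates. All embryos were wild type and had no experimental treatment, but their mothers had been injected with the hormones PMSG and hCG to induce ovulation. The paper cautions that such superovulation and culture in vitro may influence embryos. The strain is labelled C57BL/6N x PWK, while the collection protocol names C57BL/6J females of 4 weeks and PWK/PhJ males. Embryos had been taken from the mothers at the 8-cell stage, grown to blastocysts in KSOM medium and freed of the zona pellucida, so every library comes from embryos cultured in vitro. RNA-seq was made from polyadenylated RNA by Smart-seq2, and Ribo-seq from RNase I-digested lysates pelleted through a sucrose cushion in the presence of cycloheximide. Nothing in the labels says that replicates came from separate pools of embryos, so p-values measure only the spread between these libraries, which may be technical. In whole embryos, fewer cells that express a gene and less RNA per cell cannot be told apart.

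Values are FPKM, fragments scaled by feature length and by the mapped total of the library, computed over transcripts for mRNA and over coding sequences for RPFs. The steps between low FPKM values implied about 5458450 and 5156020 fragments in the RNA-seq libraries and 533373 and 484041 in the Ribo-seq libraries. These totals are estimates, since 61.1% to 64.5% of the low RNA-seq values and 83.7% to 84.5% of the low Ribo-seq values came out within 0.1 of a whole fragment. At that depth 3 fragments on the coding sequence of Khdc1a stand for 18.7 and 20.6 FPKM in Ribo-seq, so low RPF values carry a large counting error. All 7 trophectoderm markers were at or above 1 FPKM in every library. The epiblast markers summed to 143 and 58.1 FPKM in mRNA and to 693 and 844 FPKM in RPFs. In mRNA, Pou5f1 had 70.1 and 28.6 FPKM and Nanog had 69.8 and 28.1 FPKM. Sox2 had 0.889 and 0.682 FPKM in mRNA, Klf4 had 0.775 and 0.477 and Esrrb had 1.705 and 0.292. All 5 were at or above 1 FPKM in both Ribo-seq libraries, with Sox2 at 37.1 and 35.4 FPKM. The primitive endoderm markers summed to 12.7 and 9.40 FPKM in mRNA and to 156 and 143 FPKM in RPFs. The 6 oocyte markers summed to at most 1.92 FPKM in a library, the 3 blood markers to at most 1.62 FPKM, and of the 6 cumulus and granulosa markers only Amhr2 was above 0. The part of the lineage makeup in the Khdc1 values was not tested.

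In the mouse genome build NCBIM37 (mm9), with gene models of GENCODE vM1, all 3 genes lie on the plus strand of chromosome 1. Khdc1a spans chr1:21339722-21342281, Khdc1c spans chr1:21358412-21360926 and Khdc1b spans chr1:21373637-21376465. The pseudogenes Gm16329, Gm16327, Gm2709 and Gm16533 lie between them, and the coding gene Gm4956 lies before Khdc1a at chr1:21275327-21288393. Genes that reach well past the end of Khdc1b were not looked for, so the nearest other coding gene is not settled. Khdc1a and Khdc1c have 3 exons and a coding sequence of 501 bases for 166 residues. Khdc1b has a model with 4 exons and 450 coding bases for 149 residues, and a second with 3 exons and 381 coding bases for 126 residues. In the first model coding bases 375 and 376 lie at 21374974 and 21374977, a gap too short for an ordinary intron. The comparisons of Khdc1b below use this first model, so they depend on it. The current RefSeq table lists Khdc1c among the synonyms of Khdc1b and Khdc1b among those of Khdc1c, so which of these loci the authors' annotation called Khdc1b and which Khdc1c is not settled by the files.

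Khdc1a and Khdc1c differ at a single base of the coding sequence, T416C, which is the second base of codon 139 (positions are counted from 1 at the A of the start codon, with the base of Khdc1a first). The 55 coding bases around it are shown because this is the stretch in which a ribosome footprint can tell these genes apart. They lie in exons at chr1:21341062-21341116 for Khdc1a and chr1:21359696-21359750 for Khdc1c (NCBIM37, plus strand, 5′ to 3′), and the capital marks the differing base.
Khdc1a: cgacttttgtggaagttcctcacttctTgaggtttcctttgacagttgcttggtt
Khdc1c: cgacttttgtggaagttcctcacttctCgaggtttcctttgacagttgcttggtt

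Khdc1b stands further off. Its coding sequence aligned with that of Khdc1a at 90.87% identity with 41 substitutions, against 99.8% for Khdc1a and Khdc1c, and the protein at 80.54% against 99.4%. The first 180 coding bases are shown because they hold the start codon and the first places at which Khdc1b departs from Khdc1a. They lie in exons at chr1:21340101-21340200 and chr1:21340339-21340418 for Khdc1a and at chr1:21374018-21374117 and chr1:21374256-21374335 for Khdc1b, and capitals mark the substitutions C49T, A82C, C106G, A162G and A172T. Khdc1c has the bases of Khdc1a throughout this stretch.
Khdc1a: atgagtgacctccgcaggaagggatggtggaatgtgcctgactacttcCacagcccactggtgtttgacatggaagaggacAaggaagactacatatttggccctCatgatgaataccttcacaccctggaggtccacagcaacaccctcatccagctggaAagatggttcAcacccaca
Khdc1b: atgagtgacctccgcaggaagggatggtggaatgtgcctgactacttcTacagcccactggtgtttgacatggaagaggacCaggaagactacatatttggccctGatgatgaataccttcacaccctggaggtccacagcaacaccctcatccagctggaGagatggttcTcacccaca

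The longest coding stretch without a difference among the 3 genes runs over 93 bases, from coding position 173 to 265, at chr1:21340411-21340503 in Khdc1a, chr1:21359045-21359137 in Khdc1c and chr1:21374328-21374420 in Khdc1b. A footprint within it fits all 3 genes equally.
Khdc1a, Khdc1b and Khdc1c: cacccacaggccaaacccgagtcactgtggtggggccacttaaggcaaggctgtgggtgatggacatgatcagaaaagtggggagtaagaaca

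Identity was also measured outside the coding sequence. Between Khdc1a and Khdc1c it was 98.78% in the 5′ UTR and 97.2% in the 3′ UTR, while between Khdc1a and Khdc1b it was 94.72% in the 5′ UTR and 72.36% in the 3′ UTR. In the promoter, taken as 250 bases before to 50 bases after the annotated start, it was 95.97% for Khdc1a and Khdc1c over 248 aligned bases and 79.35% for Khdc1a and Khdc1b over 276 aligned bases.

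The footprint of a ribosome is about as long as a window of 28 bases, so the coding sequences were read in such windows. Of the 474 windows of Khdc1a, 446 (94.1%) also occurred in another member, and the same held for 446 of 474 windows of Khdc1c. Of the 423 windows of Khdc1b, 120 (28.4%) occurred in another member, and those 120 were held by all 3 genes. No window occurred in another coding gene. A place outside the members, in the pseudogenes Gm16329 and Gm2709 or in an unannotated stretch of chromosome 11, was found for 114 windows of Khdc1a, 192 of Khdc1b and 114 of Khdc1c. No window had more than 6 places in the genome, below the limit of 20 places that the authors set for reads to be kept. Windows of 24 bases gave 95.0% for Khdc1a and 31.9% for Khdc1b, and windows of 32 bases gave 93.2% and 24.8%. Only 28 windows in each gene separate the RPFs of Khdc1a from those of Khdc1c, and the rest depend on how reads with several places were shared out, so their single RPF values are uncertain, whereas most windows of Khdc1b are its own among the members.

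**Figure D1:**
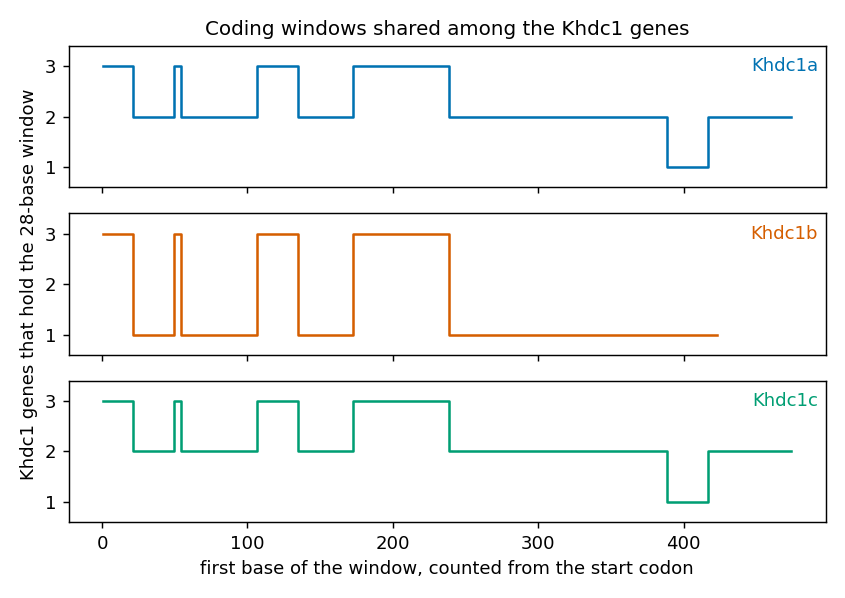
Number of Khdc1 genes (vertical axis, 1 to 3) that hold each 28-base coding window, by the first base of the window counted from the start codon (horizontal axis, bases), with a panel for each gene. Khdc1a and Khdc1c drop to 1 gene over 28 windows only, whereas Khdc1b is at 1 gene over most of its length and at 3 genes for 120 of 423 windows.

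mRNA reads can use the UTRs as well. Over the whole mRNA, 60.5% of the 28-base windows of Khdc1a, 59.5% of those of Khdc1c and 10.5% of those of Khdc1b were shared among members. With windows of 100 bases the shares were 26.5% for Khdc1a and 27.1% for Khdc1c, and none of the 2146 windows of Khdc1b was shared. These shares use the GENCODE model of Khdc1c, with 1946 bases and a 3′ UTR of 1118 bases. If its transcript ended where RefSeq ends it, at 844 bases, most of that UTR would be missing. Far fewer windows would then separate Khdc1c from Khdc1a, and the shares were not computed for that case.

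The members had modest mRNA levels. Khdc1a had 7.71 and 8.32 FPKM in the RNA-seq libraries, a mean of 8.02 ± 0.433 FPKM (SD, n = 2). Khdc1b had 2.55 and 2.04 FPKM, a mean of 2.29 ± 0.356 FPKM. Khdc1c had 20.9 and 27.2 FPKM, a mean of 24.03 ± 4.49 FPKM. In FPKM, Khdc1c was the highest and Khdc1b the lowest in both libraries, and the values of the 3 genes did not overlap. This order rests on the annotated transcript lengths. With the RefSeq end of Khdc1c, its values would stand for 73.3 and 90.3 fragments, against 75.2 and 76.7 of Khdc1a. The part of transcript length and read assignment in the order was not tested. Among all 20714 symbols, 79.8% had a lower mean mRNA level than Khdc1a, 65.6% than Khdc1b and 89.7% than Khdc1c.

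Their RPF levels were among the highest of all genes. Khdc1a had 1382 and 1360 FPKM in the Ribo-seq libraries, a mean of 1371 ± 16.2 FPKM (SD, n = 2). Khdc1b had 731 and 821 FPKM, a mean of 776 ± 63.7 FPKM. Khdc1c had 1408 and 1463 FPKM, a mean of 1436 ± 39.5 FPKM. Khdc1b was the lowest in both libraries, while Khdc1a and Khdc1c stood close together. The lowest value of Khdc1c lay just above the highest of Khdc1a, a gap smaller than the median replicate difference of genes at this level, which was 0.16 to 0.17 on the log2 scale. By mean RPF level Khdc1c ranked 236, Khdc1a 254 and Khdc1b 389, and 98.1% to 98.9% of symbols lay below them. With 2 libraries against 2, an exact permutation test cannot go below p = 0.333, so no test of the order of the members was made.

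**Figure D2:**
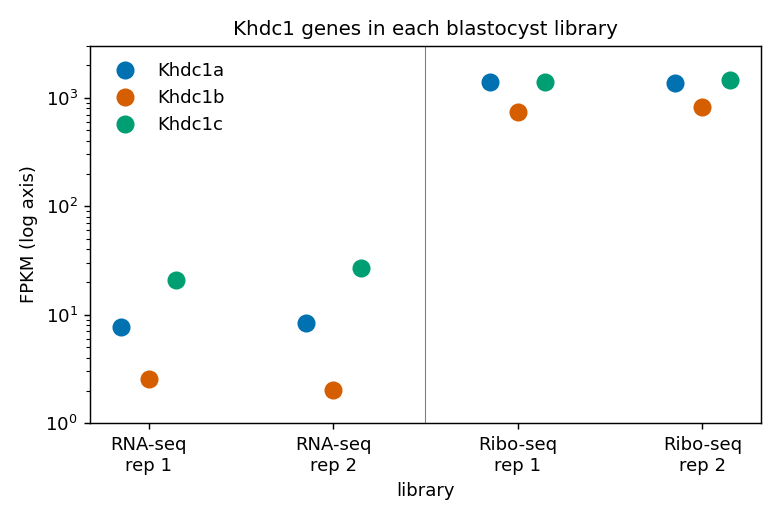
FPKM (vertical log axis) of Khdc1a, Khdc1b and Khdc1c, a point each, in the 2 RNA-seq and 2 Ribo-seq blastocyst libraries (horizontal axis). The mRNA points lie between 2.04 and 27.2 FPKM and the RPF points between 731 and 1463 FPKM, with Khdc1b lowest in all 4 libraries.

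Replicates stayed close for these genes. The second library differed from the first by 0.10 (Khdc1a), -0.22 (Khdc1b) and 0.37 (Khdc1c) in mRNA and by -0.02, 0.17 and 0.06 in RPFs, on the log2(FPKM + 1) scale. The median absolute difference of genes within 2-fold of the same level was 0.31, 0.37 and 0.26 in mRNA and 0.17, 0.19 and 0.16 in RPFs. Only Khdc1c in mRNA was above that median. In implied fragments, the RPF values stood for 222 and 198 fragments of Khdc1a, 97.3 and 99.2 of Khdc1b and 226 and 213 of Khdc1c. The mRNA values stood for 75.2 and 76.7 fragments of Khdc1a, 28.4 and 21.5 of Khdc1b and 199 and 245 of Khdc1c. If the annotated transcript of Khdc1c ended where RefSeq ends it, at 844 bases instead of 1946, the latter would be 73.3 and 90.3 fragments. The level of Khdc1b mRNA therefore rests on the fewest fragments.

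The makeup of the family differed between the assays. Khdc1c gave 67.0% and 72.4% of the summed FPKM of the 3 genes in mRNA and 40.0% and 40.2% in RPFs. Khdc1b gave 8.18% and 5.44% in mRNA and 20.8% and 22.5% in RPFs. Khdc1a gave 24.8% and 22.2% in mRNA and 39.3% and 37.3% in RPFs. In ratios, Khdc1c was 2.71 and 3.27 times Khdc1a in mRNA and 1.02 and 1.08 times Khdc1a in RPFs, and 8.19 and 13.3 times Khdc1b in mRNA and 1.93 and 1.78 times Khdc1b in RPFs. For each gene the shares in the RNA-seq libraries did not overlap those in the Ribo-seq libraries. The shares of a library are parts of the same sum, so they are not independent. Such cases were not counted over other genes, so nothing is read from the lack of overlap. The members were chosen on the difference of the assays and no test was made. Near-identical coding windows of Khdc1a and Khdc1c accompany the near-equal RPF values of these genes, and the part of read assignment in that was not tested. The mRNA shares and ratios rest on the annotated transcript length of Khdc1c and on how shared mRNA reads were assigned. The part of either in these values was not tested. Summed over the family, the level was 31.1 and 37.6 FPKM in mRNA and 3521 and 3644 FPKM in RPFs. These were 0.00599% and 0.00706% of all mRNA FPKM and 0.185% and 0.186% of all RPF FPKM. The division among Khdc1a and Khdc1c does not matter for the RPF sum, since their coding sequences are equally long. It does matter for the mRNA sum if their annotated transcripts differ much in length, as with the RefSeq end of Khdc1c.

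**Figure D3:**
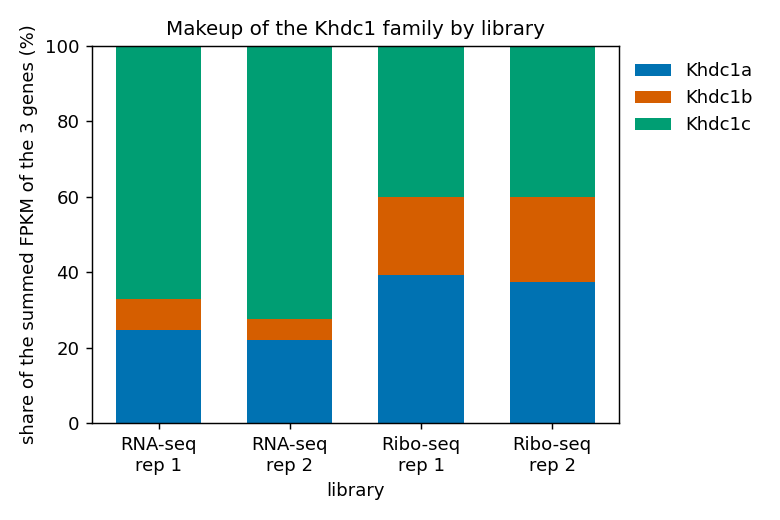
Share of the summed FPKM of the 3 Khdc1 genes (vertical axis, percent) given by each gene, as stacked bars for the 4 blastocyst libraries (horizontal axis). Khdc1c fills 67.0% and 72.4% of the RNA-seq bars and 40.0% and 40.2% of the Ribo-seq bars.

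The choice of the genes is seen in their RPF minus mRNA, the difference of log2(FPKM + 1) between the assays after setting the median of 8327 tested genes to 0. Before centring the median gene was 1.26 higher in RPFs, and all differences below are relative to it. The difference was 5.99 for Khdc1a, with a range of 5.93 to 6.05 over the 4 pairs of libraries. It was 6.62 for Khdc1b (6.43 to 6.82) and 4.59 for Khdc1c (4.38 to 4.81). The plain ratio of the mean RPF to the mean mRNA FPKM was 171 for Khdc1a, 338 for Khdc1b and 59.7 for Khdc1c. It is a linear fold, not a log2 value, and it is not centred on the median gene. These values chose the members, so they are a description and carry no test. Among the genes tested 1134 (13.6%) were called higher in RPFs and 477 (5.73%) lower, by limma at an adjusted p under 0.05 and a difference of at least 1. Calls numbered 601 and 623 without RNA-seq replicate 2 or 1, and 2724 and 2674 without Ribo-seq replicate 1 or 2, against 1611 in all.

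Khdc1b was 20th, Khdc1a 28th and Khdc1c 57th in the order of RPF minus mRNA among the 8327 genes. The genes just above Khdc1b were Hist2h2bb at 6.78, Hist1h2bb at 6.92 and Hist1h2ba at 6.97, which encode H2B histones. Those just below Khdc1c were Hist1h3b at 4.53, Hebp1 at 4.45 and the ribosomal protein pseudogene Rpl31-ps12 at 4.42. Down to Khdc1c, 39 of the 57 genes were histone genes and 15 were neither histone genes nor members. Most histone mRNAs are known to end without a poly(A) tail, and the RNA-seq libraries were made from polyadenylated RNA. The poly(A) state of the Khdc1 mRNAs was not measured. When genes named Hist were left out, Khdc1b was 2nd, Khdc1a 4th and Khdc1c 18th of 5977 genes with a mean RPF level of at least 10 FPKM.

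**Figure D4:**
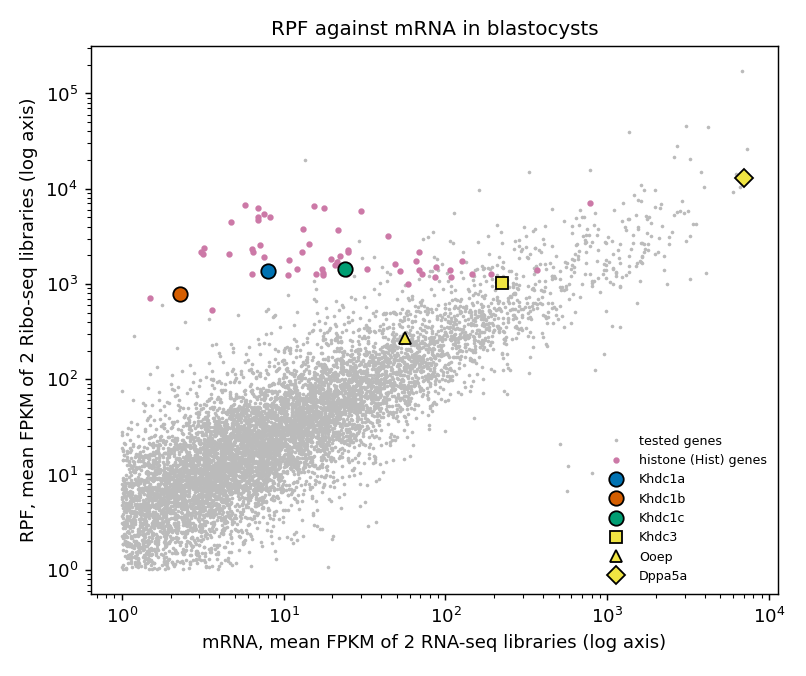
Mean RPF level (vertical log axis, FPKM) against mean mRNA level (horizontal log axis, FPKM), each over 2 libraries, for the 8327 tested genes (grey), with histone genes, the 3 Khdc1 genes and the relatives Khdc3, Ooep and Dppa5a marked. The Khdc1 genes, which were chosen for high RPF against mRNA, sit among the histone genes, above the band of most other genes. Khdc3, Ooep and Dppa5a lie near that band. Because of the choice of the Khdc1 genes, nothing is read from this contrast.

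Set against genes with a like mRNA level, the members stood far up. Of 423 genes within 10% of the mRNA level of Khdc1a, the median RPF level was 21.6 FPKM with quartiles of 11.8 and 38.9, and 3 genes reached that of Khdc1a, all histone genes. Of 433 genes near Khdc1b the median was 6.35 FPKM (3.30 to 11.6) and none reached it. Of 288 genes near Khdc1c the median was 61.0 FPKM (38.3 to 110) and 3 histone genes reached it. The members were chosen on this contrast, so nothing is read from these counts.

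The other tested genes were grouped by coding length and by shared sequence. Genes with a coding sequence of 400 to 550 bases, as the members have, numbered 477, with a median difference of 0.18 and 23.1% called higher, against 11.3% of the 6547 genes with longer coding sequences. Of these 477, 2 exceeded Khdc1a, none exceeded Khdc1b and 9 exceeded Khdc1c. Among genes under 400 bases, 41.0% of 402 were called higher. Genes with at least 50% of their windows in another coding gene numbered 319, with a median difference of -0.04 and 29.5% called higher. Without histone genes they numbered 271, with a median of -0.33 and 17.7% called higher, and none exceeded a member. The 7107 genes with under 50% shared had a median of 0.01 and 12.9% called higher, so the share called was larger among genes with shared windows while the median was not. The members were chosen for high differences, so nothing is read from the counts of genes that exceeded them. The part of length and shared sequence in the Khdc1 values was not tested.

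Genes whose levels over the 4 libraries were closest to those of a member, by Euclidean distance of log2(FPKM + 1), were mostly histone genes. For Khdc1a they were Hist1h3f (distance 0.52), Hist1h3g (0.59) and Hist1h2bp (0.71). For Khdc1b they were Gm4832 (0.95), Hist1h2ba (1.01) and Hist3h2a (1.12), and Gm4832 had 2.78 and 0.768 FPKM in mRNA and 563 and 633 FPKM in RPFs. For Khdc1c they were Hist1h3b (0.18), Hist1h3i (0.30) and Hist1h2bq (0.44). The closest gene outside the histones was Hmga2, a chromatin protein with AT-hooks, at 1.33 for Khdc1a and Smim7 at 0.71 for Khdc1c.

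The relatives with an atypical KH domain had higher mRNA levels than any member and differences of at most 0.95. Khdc3 and Ooep encode proteins of the subcortical maternal complex of oocytes, and Dppa5a is a marker of pluripotent cells. Khdc3 had 240 and 207 FPKM in mRNA and 1016 and 1025 in RPFs, a centred difference of 0.93 ± 0.14 (SE), which did not reach the limit of 1 (limma, adjusted p = 0.0111). Ooep had 48.96 and 62.9 FPKM in mRNA and 205 and 332 in RPFs, a difference of 0.95 ± 0.29 (adjusted p = 0.0759). Dppa5a had 7039 and 6890 FPKM in mRNA and 12490 and 13128 in RPFs, a difference of -0.38 ± 0.07 (adjusted p = 0.0186). Of the 3 relatives, 0 passed both limits in limma, and at an unadjusted p under 0.05 2 were higher and 1 lower. Without RNA-seq replicate 1 or Ribo-seq replicate 1, and with quantile normalization, 1 of the 3 relatives or the other genes of the complex was called, and 2 without centring. The other 5 genes of the complex were too low to test, and Nlrp5 was at 0 in all 4 libraries.

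Of 36 other genes with KH domains, 27 passed the filter and 13 were called higher in RPFs, 0 lower and 14 not called by limma (0 lower at an unadjusted p under 0.05), with a median difference of 1.05 against 0 for all genes tested. The share called, 13 of 27, compares with 13.6% of all genes tested. Without RNA-seq replicate 2, 7 were called. Those called had lower differences than any member, but the members were chosen for high values, so nothing is read from this order. Fxr2, an RNA-binding relative of Fmr1, had 1.59 and 1.19 FPKM in mRNA and 36.9 and 70.5 in RPFs, a difference of 3.19 ± 0.43 (limma, adjusted p = 0.00757). Khsrp, which promotes mRNA decay through AU-rich elements, had a difference of 3.04 ± 0.28 (adjusted p = 0.00237), and Igf2bp1, which stabilises mRNAs, one of 2.99 ± 0.30 (adjusted p = 0.00279). Pcbp2, a poly(C)-binding protein, had 2.41, Khdrbs1 had 2.39, the splicing factor Sf1 had 2.30 and Hnrnpk, the protein that gave the domain its name, had 1.05. Tdrkh at -0.18 ± 1.42, Pcbp4 at -0.68 ± 0.33 and Igf2bp3 at -0.08 ± 0.46 were among those not called.

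**Figure D5:**
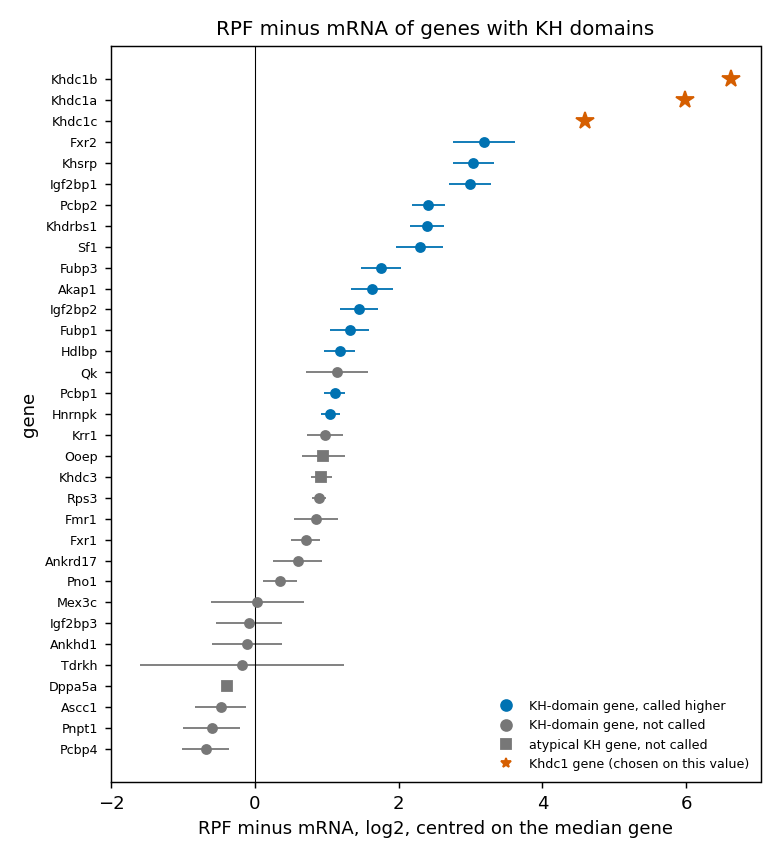
RPF minus mRNA (horizontal axis, log2, centred on the median gene) of the tested genes with KH domains (vertical axis), with bars for the SE, circles for the 27 KH-domain genes, squares for the 3 atypical relatives and stars for the Khdc1 genes, which were chosen on this value. Called genes are blue, and the highest, Fxr2, lies at 3.19, below the lowest Khdc1 gene at 4.59.

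Of 13 genes known from the 2-cell stage, where cleavage embryos begin their own transcription, 11 were listed in both assays and 5 of them were at 0 in all 4 libraries. Only Tdpoz2 could be tested, with 4.56 and 5.82 FPKM in mRNA and 30.7 and 35.1 in RPFs, a difference of 1.20 ± 0.31 (limma, adjusted p = 0.0489). It was no longer called without RNA-seq replicate 1, RNA-seq replicate 2 or Ribo-seq replicate 2.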

How the data were processed

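Deposited values are FPKM, which the authors computed per library with Cufflinks 2.2.1 over UCSC mm9 transcripts (RNA-seq, trimmed with Trim Galore 0.4.2) or over mm9 refFlat coding sequences (Ribo-seq, trimmed with cutadapt 1.14, rRNA reads removed with Bowtie2 2.2.2). Reads were mapped by STAR 2.5.3a to at most 20 places, with 2 mismatches in Ribo-seq. Replicates were not pooled. Repeated symbols were reduced to their highest value.

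Genes with a mean of at least 1 FPKM in both assays (8327) were fitted on log2(FPKM + 1) by limma 3.58.1 (R 4.3.3) with a variance trend, with differences centred on the median gene and Benjamini-Hochberg adjustment. A fold is understated for low genes on this scale. The fit was tested on simulated data with known answers, and the variance trend was adopted at that step, after the files had been seen. In the simulated data the spread between replicates depended on the level alone, so they cannot show that a trend is the better choice. Whether the trend suits the measured values better was not tested. The fit without it called 1030 genes, against 1611 with it. Alternatives were other pseudocounts, filters and scalings, summed symbols, a replicate block, plain lengths, other window lengths and leaving out each library. Implied fragments assume Cufflinks' default fragment length (mean 200, SD 80 bases). The totals are estimates.

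Coding windows were counted over NCBIM37, both strands, and over GENCODE vM1 protein-coding transcripts. Python 3.11.15 was used. The members and lists were chosen with earlier results of these data known. Named genes are the members, the genes of the lists, the 3 genes with the nearest levels to each member and the 3 genes next above and below the members in order. Hist genes, Gm4832, Hmga2 and Smim7 follow from that rule or, for the last pair, from leaving histone genes out, which was chosen after values were seen.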

Additional observations from a re-analysis of the deposited data

How the results depend on the processing

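The implied 484041 to 533373 fragments of the Ribo-seq libraries limit RPF values of low genes. Against 1611 genes called (1134 higher, 477 lower, 70.4% of calls higher), no filter gave 2480 (2365 and 115, 95.4%), no centring 4210 (4144 and 66, 98.4%), quantile normalization 806 higher and 924 lower (46.6%), and a fit without the variance trend, added after seeing the data, 1030 (270 lower). Leaving out a library, where the lone library of an assay is assumed to vary like those of the other assay, gave 601 to 2724 calls, 513 to 1422 higher and 88 to 1302 lower. KH-domain genes called numbered 13, 20 without centring and 7 to 12 without a library. Of the relatives with an atypical KH domain and the subcortical maternal genes, 0 were called, 2 with a pseudocount of 5 or without centring, 1 without a filter or with quantile normalization, and 0 to 1 without a library. Of the 2-cell list 1 gene was called (Tdpoz2), and 0 with a pseudocount of 5, a filter at 5 FPKM, quantile normalization, the replicate block or no variance trend, and 0 to 1 without a library. The cause was not tested. The difference of Khdc1a (5.99) was 5.79 with a pseudocount of 5, 7.25 without a filter or centring, 5.49 with quantile normalization, 5.53 per plain length and 5.85 to 6.03 without a library. That of Khdc1b (6.62) was 6.95 and 5.80 with pseudocounts of 0.1 and 5, 7.88 without a filter or centring, 6.36, 6.01 and 6.38 to 6.76 in the same order, and the filter at 5 FPKM removed it. That of Khdc1c (4.59) was 5.85 without a filter or centring, 4.03 with quantile normalization, 4.15 per plain length, 4.37 so with the shorter RefSeq transcript (added after seeing the data) and 4.41 to 4.77 without a library. The family median (5.99) was 5.41 as the sum of the 3 members. Same-numbered libraries are not shown to pair: their deviations correlated at 0.00994 over 8327 genes, and with the replicate block 1175 genes were called higher, 524 lower and 13 of the KH list. RPF minus mRNA of the 3 members stayed above 0 under every alternative that gave a value. The members were chosen for high differences, so nothing is read from that sign. Quantile normalization left fewer genes called higher than lower.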
